A study of Arabidopsis thaliana with 88 samples.

Results

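Plate-grown roots of Arabidopsis thaliana plants labelled chx25-3 were set against plate-grown roots of the wild type Col-0, with ploidy as a covariate. The comparison holds 12 of the 88 libraries of the series, 6 of chx25-3 and 6 of wild type, and each genotype gave 3 libraries from 2x (diploid) and 3 from 4x (neo-tetraploid) plants. Plants grew for 2 weeks on agar plates of MS medium with sucrose, and each plate library pooled several plants. The 4x chx25-3 plants descend from 1 colchicine-treated individual, so that line and ploidy cannot be told apart within the mutant, and the 4x wild type came from earlier work. The transcripts were read from their 3′ ends (QuantSeq), and reads were summed per gene locus. The study's own list of lines gives the fifth mutant as chx23-4, a T-DNA insertion in CHX23, and the names of the deposited tables also say chx23, whereas the labels say chx25-3. The name in the labels is used here. Roots of the same lines grown for 5 weeks in soil (5 chx25-3 and 6 wild type libraries, 1 plant each) and plate roots of 3 other mutants (esb1-1 with 6, sos3-2 with 5 and rhd6-3/rsl1-1 with 5 libraries) serve as further points of reference.

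CHX proteins form a large plant family of cation/H+ exchangers that sit in membranes of the endomembrane system, the vacuole, plastids or the cell surface and move K+ or Na+ against H+. Many members are made mainly in pollen, and a few, CHX17 among them, are root genes that answer to salt and low K+. Roots on plates also carry well-known transcript programmes that move with carbon supply, time of day, light, temperature, wounding and mineral nutrition, and the gene groups below are taken from these.

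The label could not be checked on its target gene. CHX25 (AT5G58460) had 2 counts in all over the 6 chx25-3 libraries, both in 1 library, and 1 count over the 6 wild type libraries. CHX23 (AT1G05580) had 2 counts over the chx25-3 libraries, at most 1 in a library, and 0 over the wild type libraries. Neither gene reached a level that these root libraries can measure in either genotype, so the reads do not tell which of the names is right. The tested neighbours of both genes were close to wild type: AT1G05575 had a log2 fold change (chx25-3 over wild type) of 0.49 ± 0.22 (SE, adjusted p = 0.163 by edgeR), HEXO2 of −0.01, EMB3101 of −0.21, SNX2a of 0.03, AT5G58450 of −0.00 and TAF15b of −0.15. None of these 6 passed the test.

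The chx25-3 libraries held 3292996 to 7099376 assigned reads (median 6869553) and the wild type libraries 8530110 to 10246421. These ranges do not overlap, so depth and genotype cannot be told apart by comparing libraries as deposited; with every library thinned to about 3292994 reads, 1035 genes passed the test, 878 of them among the 1193 that passed at full depth. On the first principal component (44.95% of the variance over 12115 genes) the 3 chx25-3 2x libraries lay at 28.94 to 51.26, the chx25-3 4x libraries at −12.24 to 9.70, the wild type 2x libraries at −29.45, −26.15 and 13.26, and the wild type 4x libraries at −31.63 to −9.03. Wild type 2x replicate 3 and chx25-3 2x replicate 1 stood apart from their groups, and chx25-3 2x replicate 1 was also the shallowest library. Reads from organelle genes took 0.238 to 0.607% of the chx25-3 2x libraries and 0.94 to 1.56% of the chx25-3 4x libraries, against 0.659 to 1.974% of the wild type 2x and 1.016 to 1.171% of the wild type 4x libraries. Their part in the results was not tested. Tube numbers in the names of the deposited tables run by genotype on plates. They were 1 to 6 in wild type and 25 to 30 in chx25-3, with the other mutants in between. Genotype and the order of these numbers cannot be told apart. All 8 root markers passed the filter and none was called. Of 17 shoot photosynthesis genes 15 passed and none was called, and their summed level was 300 to 516 CPM (counts scaled to a common number of assigned reads per library) in chx25-3 and 276 to 483 CPM in wild type roots, against 64987 to 116530 CPM in the soil-grown shoots of the series.

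Of 17457 genes tested, 812 were higher and 381 lower in chx25-3, 6.83% in all (edgeR's quasi-likelihood test, with calls at a Benjamini-Hochberg adjusted p under 0.05 where the log2 fold change was also 0.5 or more in size). Higher genes made up 4.65% and lower genes 2.18%, and the median log2 fold change of all genes was −0.02. For 248 of the higher genes (1.42% of all tested) and 148 of the lower (0.848%) the 6 chx25-3 libraries did not overlap with the 6 wild type libraries. Whether called or not, 1.53% of the tested genes were without overlap on the higher and 2.38% on the lower side. The called genes were spread over the genome, with 6.38% (chromosome 3) to 7.16% (chromosome 2) of the tested genes of a chromosome called. Leaving out both outlying 2x libraries gave 1167 calls, 952 of them shared, and leaving out wild type 2x replicate 2 alone gave 795. In these bulk roots fewer cells of a type and less RNA per cell cannot be told apart.

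The CHX family itself showed 1 change. Of 28 members 3 were expressed highly enough to be tested, and CHX17 (AT4G23700), a root exchanger of the endomembrane system, was higher in chx25-3. Its level was 180, 282 and 400 CPM (lowest, median, highest) in chx25-3 and 87.3, 145 and 187 CPM in wild type. The groups overlapped only at their edge, where the lowest chx25-3 library fell just under the highest wild type library. The log2 fold change was 1.08 ± 0.14 (SE, n = 6 each; adjusted p = 0.000189, edgeR), with 1.18 in 2x and 0.99 in 4x plants. CHX17 was also higher in chx25-3 than in the other 3 mutants, which overlapped with it at 91.4 to 210 CPM (log2 fold change 0.98, adjusted p = 2.39e-06, edgeR). CHX16 (0.31, adjusted p = 0.198) and CHX18 (0.41, adjusted p = 0.106) did not pass. In soil roots CHX17 had a log2 fold change of 0.06.

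Other genes of potassium, sodium and proton transport stayed near wild type. Of 28 tested members of the potassium and sodium list, among 31, none passed in either direction, and their median log2 fold change was 0.07. HAK5, the high-affinity K+ transporter of roots, had 0.55 (adjusted p = 0.256, edgeR), the inward channel AKT1 0.08, the Na+ exporter SOS1 0.21, and the vacuolar exchangers NHX1 and NHX2 0.04 and −0.00. Of 12 proton pump genes, subunits of the plasma membrane and vacuolar H+ pumps, all were tested and none passed, with a median of −0.09. In 2x roots alone 1 potassium and sodium gene was higher and 1 lower (7.14%, against 9.54% of all genes). There 2 proton pump genes were lower (16.7%), and the median of these pumps was −0.25. In 4x roots alone no member of either list passed.

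**Figure D1:**
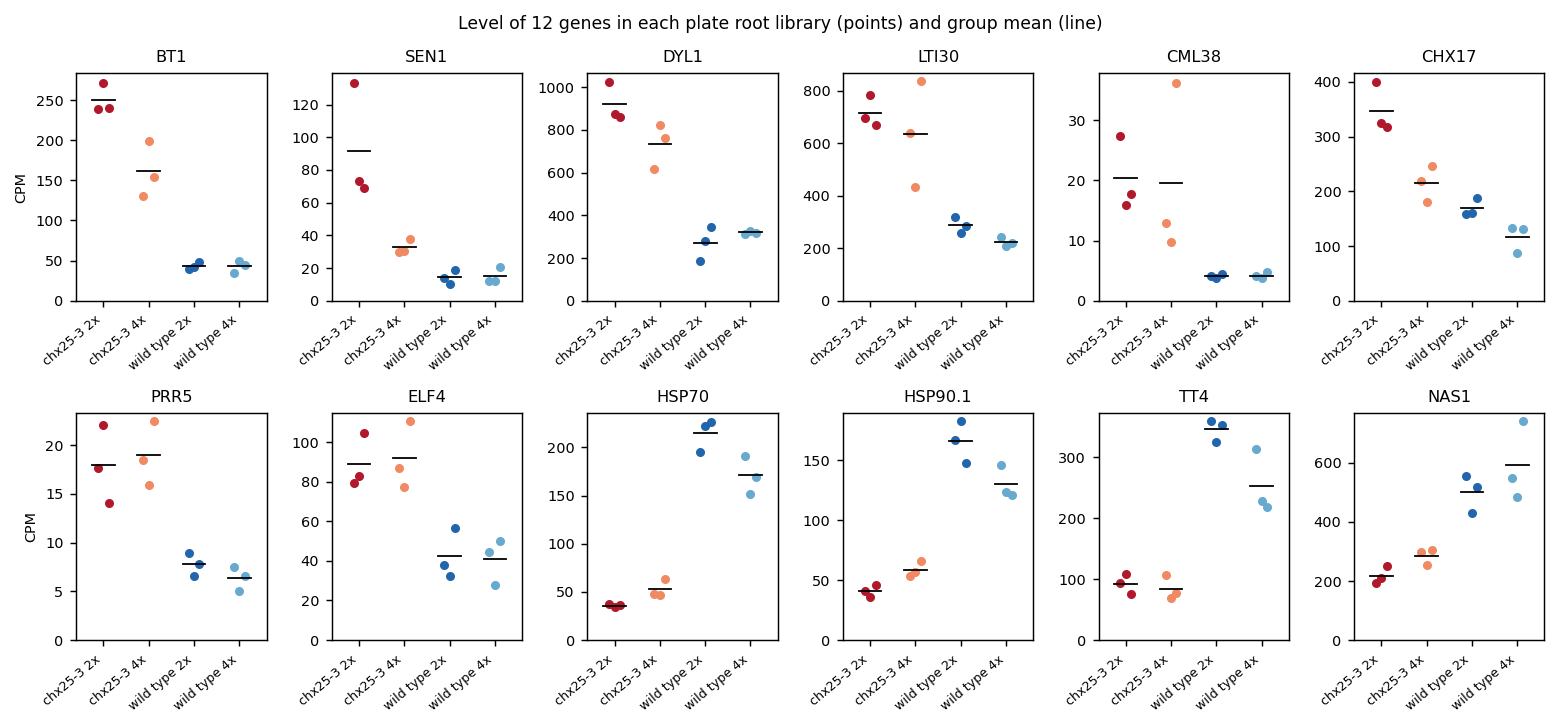
Levels of 12 genes in each plate root library, in CPM on a vertical axis of its own for each gene, by group (chx25-3 2x, chx25-3 4x, wild type 2x, wild type 4x; 3 libraries each); points are libraries and the line is the group mean. BT1, SEN1, DYL1, LTI30, CML38, PRR5 and ELF4 sit higher in all chx25-3 libraries than in any wild type library, HSP70, HSP90.1, TT4 and NAS1 sit lower, and CHX17 overlaps at its edge.

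The largest changes included a group of genes known to rise when sugar is short or plants are kept dark. BT1 (AT5G63160), a BTB/TAZ-domain scaffold protein repressed by sugar and linked to nitrogen use, had the smallest p in the comparison. Its level was 130, 219 and 272 CPM in chx25-3 and 34.7, 42.8 and 49.9 CPM in wild type. No chx25-3 library came near the wild type range, and the log2 fold change was 2.35 ± 0.16 (adjusted p = 7e-07, edgeR). SEN1 (AT4G35770), a senescence- and dark-induced gene, lay at 30.003, 53.3 and 133 CPM in chx25-3 and at 10.08, 13.2 and 20.5 CPM in wild type (2.03 ± 0.34, adjusted p = 0.00415, edgeR). Its groups did not overlap, and the effect was 2.81 in 2x and 1.23 in 4x roots. DYL1 (AT1G28330), a dormancy-associated protein, was among the more abundant of these transcripts, with 618, 842 and 1023 CPM in chx25-3 and 185, 317 and 343 CPM in wild type (1.61 ± 0.17, adjusted p = 3.21e-05, edgeR). All chx25-3 libraries again exceeded all wild type libraries. AT3G15450, a sugar-repressed gene of the aluminium-induced family, lay at 789, 933 and 1516 CPM in chx25-3 and 214, 311 and 474 CPM in wild type (1.74 ± 0.21, adjusted p = 9.29e-05, edgeR).

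These genes belong to a list of 17 sugar starvation and darkness genes that was drawn up after the values had been seen, so that its count is a description only. All 17 were tested, and 11 were higher and 0 lower (64.7%, against 6.83% of all genes), with a median log2 fold change of 1.32. BT2, the closest relative of BT1, had 84.5, 101 and 120 CPM in chx25-3 and 30.3, 37.7 and 47.1 CPM in wild type (1.53 ± 0.12). AT2G33830, a second dormancy-associated gene, had 1.74, and DIN10, a raffinose synthase-like dark-inducible gene, 1.33. TPS11 and TPS9, class II trehalose phosphate synthase-like proteins, had 1.32 and 0.69. KMD1, an F-box protein that targets type-B response regulators of cytokinin, had 1.25, and MIOX2, a myo-inositol oxygenase, 1.37. The members that did not pass were ASN1 (0.48), DIN2 (0.25), DIN4 (0.35), BGAL4 (0.29), TPS8 (0.49) and TPS10, which had an adjusted p of 0.0196 by edgeR but a log2 fold change of 0.47, under the minimum. Summed over the list the level was 2696 to 4130 CPM in chx25-3 and 985 to 1461 CPM in wild type. The other 3 mutants spanned 958 to 3495 CPM, so that they overlap with both. All plates held sucrose, and whether carbon supply plays a part in these values was not tested.

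Genes tied to abscisic acid, cold and water deficit made up another part of the higher genes. LTI30 (AT3G50970), a dehydrin, had 432, 684 and 836 CPM in chx25-3 and 210, 251 and 318 CPM in wild type (1.53 ± 0.14, adjusted p = 6.34e-06, edgeR). The groups did not overlap, and the effect was alike in size in 2x (1.46) and 4x (1.61) roots. ABF1 (AT1G49720), a bZIP factor that binds abscisic acid response elements, lay at 34.7, 45.2 and 59.2 CPM in chx25-3 and 14.8, 17.36 and 20.1 CPM in wild type (1.49 ± 0.12, adjusted p = 1.98e-06, edgeR). LTI78, also known as RD29A, lay at 38.6, 60.8 and 99.0 CPM in chx25-3 and 13.9, 23.3 and 35.7 CPM in wild type (1.56 ± 0.25). LTI65, also known as RD29B, had the largest change of the group at 2.27 ± 0.41 (adjusted p = 0.00511, edgeR), from lower counts and with groups that overlapped at 5.08 CPM in the lowest chx25-3 and 5.46 CPM in the highest wild type library. DREB2A, a factor of drought and heat responses, had 1.26, the LEA proteins LEA4-5 and LEA7 had 1.93 and 1.56, and the NAC factor RD26 had 0.83. RD22 went the other way (−1.05 ± 0.20). Of 22 genes on this list, likewise drawn up after the values had been seen, 20 were tested, 10 were higher and 1 lower (55.0%, against 6.83% of all genes), and the median was 0.59. KIN1 (−0.20), RAB18 (0.39) and NCED3 (0.61, adjusted p = 0.176, edgeR), which encodes a key enzyme of abscisic acid synthesis, did not pass. HSFA6B (AT3G22830), a heat shock factor gene known to be induced by abscisic acid, was among the 12 largest increases. Its level was 12.1, 18.05 and 59.6 CPM in chx25-3 and 2.28, 5.29 and 6.78 CPM in wild type (2.45 ± 0.39, adjusted p = 0.00327, edgeR). The other mutants ranged over 1.98 to 90.06 CPM at this gene, wider than chx25-3 and wild type together.

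Factors that roots switch on within minutes of touch, wounding or elicitors were partly higher. Of 18 tested rapid stress genes, among 23, 8 were higher and none lower (44.4%, against 6.83% of all genes), and the median log2 fold change was 0.72. The count was 4 without wild type 2x replicate 2 or wild type 4x replicate 2, and 5 without wild type 2x replicate 1, chx25-3 2x replicate 2 or chx25-3 4x replicate 3. Summed over the list the genotypes overlapped, at 752 to 1150 CPM in chx25-3 and 573 to 1198 CPM in wild type. MYB51 (AT1G18570), a regulator of indole glucosinolate synthesis, had 21.4, 37.3 and 54.1 CPM in chx25-3 and 7.06, 12.3 and 14.6 CPM in wild type (1.74 ± 0.20, adjusted p = 4.88e-05, edgeR). TCH3 (AT2G41100), a touch-induced calmodulin-like protein, had 75.4, 102 and 156 CPM in chx25-3 and 34.8, 46.8 and 66.2 CPM in wild type (1.302 ± 0.19). For both genes the groups did not overlap. The zinc finger repressors ZAT10 (1.32), ZAT6 (1.09) and ZAT12 (0.73), ERF6 (0.96), SZF1 (0.77) and WRKY33 (0.72) completed the 8. Of these, ERF6 and SZF1 were lost in 9 of 24 alternatives each, ZAT12 in 6 and ZAT10 in 4. WRKY40 (1.14, adjusted p = 0.0514, edgeR) and ERF105 (1.28, adjusted p = 0.109) had changes of like size that did not pass. CML38 (AT1G76650), another calmodulin-like protein and not a member of the list, had 9.72, 16.8 and 36.2 CPM in chx25-3 and 3.74, 4.07 and 4.70 CPM in wild type. The wild type libraries were nearly equal at this gene while the chx25-3 libraries varied, and the log2 fold change was 2.39 ± 0.29 (adjusted p = 0.000237, edgeR).

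Hormone-linked defence lists held fewer calls. Of 8 tested salicylic acid genes, among 13, CBP60G (0.91), a factor of salicylic acid synthesis, and WRKY70 (0.67) were higher (25.0%, against 6.83% of all genes). Of 17 tested jasmonate genes, among 22, none passed, and the median was 0.31. In the indole glucosinolate and camalexin list, 12 of 12 were tested and 25.0% called. The factor MYB122 (1.27) and the cytochrome P450 CYP81F2 (0.78) were higher and MYB34 (−0.58, lost in 13 of 24 alternatives), another MYB of this pathway, was lower, while the core enzymes CYP79B2 (0.01) and CYP83B1 (−0.27) did not pass. Of 12 tested hypoxia genes, among 14, the pyruvate decarboxylases PDC1 (0.59) and PDC2 (0.90) were higher (16.7%), and ADH1 had −0.03.

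**Figure D2:**
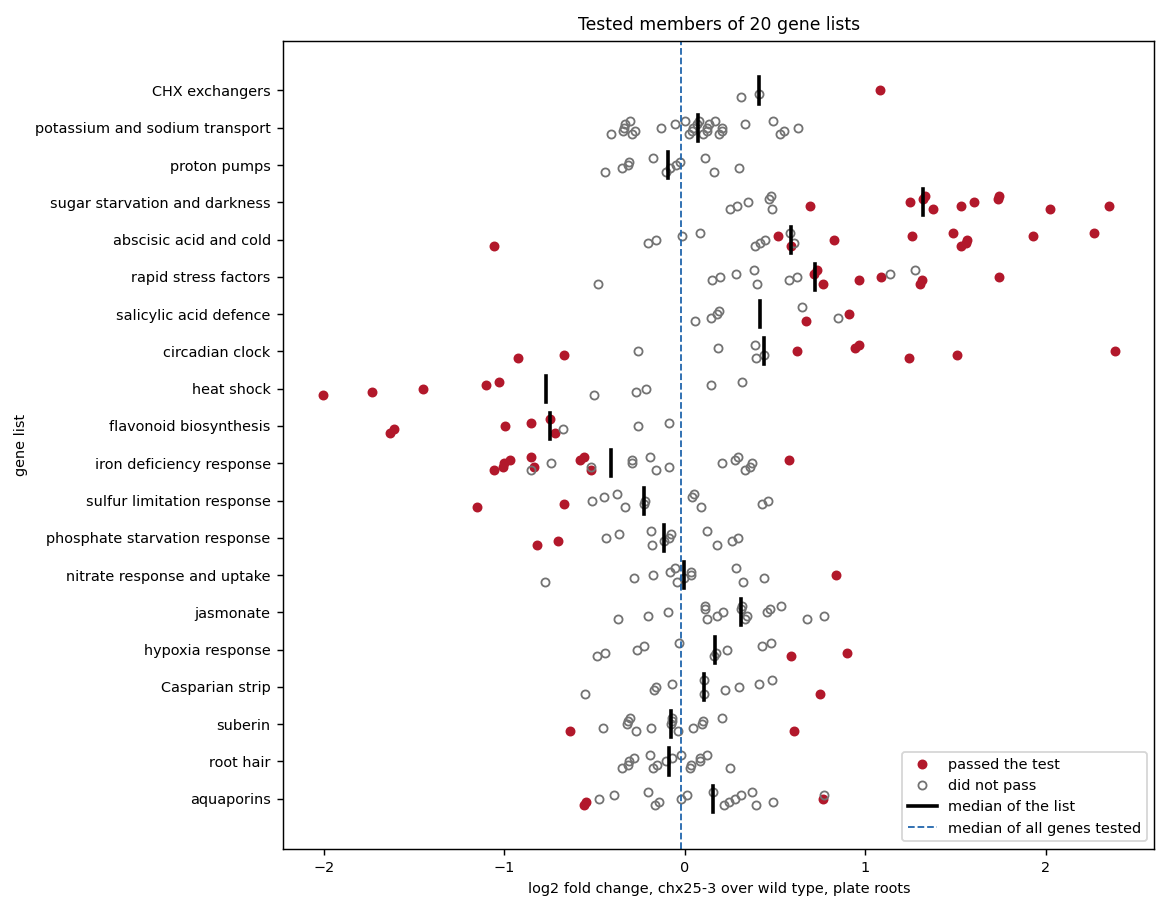
Log2 fold change, chx25-3 over wild type, of each tested member of 20 gene lists (1 line of points per list); red points passed the test, open points did not, the black bar is the list median and the dashed line the median of all genes at −0.02. Sugar starvation genes centre on 1.32 and heat shock genes on −0.77, while the potassium and sodium list centres on 0.07 with no member called.

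Circadian clock genes changed in both directions. The clock is a loop in which the morning factors CCA1 and LHY repress evening genes through the evening element, and the evening complex of ELF3, ELF4 and LUX represses in its turn genes of the night and morning. Of 13 tested members, among 14, 6 were higher and 2 lower in chx25-3 (61.5%, against 6.83% of all genes). The 6 higher genes peak in the afternoon or evening in wild type seedlings. PRR5 (AT5G24470), a pseudo-response regulator, had 14.1, 18.03 and 22.5 CPM in chx25-3 and 5.09, 7.05 and 8.98 CPM in wild type. The ranges were well apart, and the log2 fold change was 1.51 ± 0.16 (adjusted p = 2.57e-05, edgeR). ELF4 (AT2G40080) had 77.4, 85.0 and 111 CPM in chx25-3 and 27.8, 41.0 and 56.8 CPM in wild type (1.24 ± 0.18, adjusted p = 0.000566, edgeR), and LUX (AT3G46640) had 30.6, 33.2 and 39.2 CPM in chx25-3 and 16.6, 19.5 and 21.4 CPM in wild type (0.97 ± 0.11). FKF1 (AT1G68050), a blue light receptor that promotes flowering in long days, was the most changed at 2.38 ± 0.32, from low levels of 2.43, 5.29 and 9.64 CPM in chx25-3 and 0.352, 1.23 and 1.58 CPM in wild type. It passed the filter of 2 CPM in 6 libraries only through the chx25-3 libraries, and was tested in 16 of 24 alternatives. BOA, a close relative of LUX, had 0.95 and TOC1, another pseudo-response regulator, 0.62. Groups overlapped at TOC1 and not at the other 5.

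The 2 lower members were the morning factors. LHY (AT1G01060) had 13.5, 17.1 and 21.9 CPM in chx25-3 and 21.2, 31.3 and 37.7 CPM in wild type (−0.67 ± 0.15, adjusted p = 0.00987, edgeR), and CCA1 (AT2G46830) had 1.34, 2.36 and 4.65 CPM in chx25-3 and 3.84, 5.48 and 7.03 CPM in wild type (−0.92 ± 0.24, adjusted p = 0.0245, edgeR, lost in 6 of 23 alternatives). Both overlapped slightly between genotypes. The morning factor RVE1 (0.44), the evening gene GI (0.18), ELF3 (0.40), PRR7 (0.39) and RVE8 (−0.26) did not pass, so that not all members of a phase moved alike. Against the other mutants ELF4 (1.25), LUX (0.66), PRR5 (0.53) and FKF1 (0.75) were higher in chx25-3, and LHY (−0.06) and CCA1 (−0.35) did not pass. The hour of harvest of each library is not given in the sources used here, and tube numbers ran by genotype.

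The letters of the evening element, AAAATATCT on either strand, were searched in the window of 250 bases before to 50 after the annotated start of each tested gene (RefSeq, TAIR10.1). They occurred in 5 of the 13 tested clock genes, in 8.91% of 808 higher genes with a window, in 1.32% of 378 lower genes, and in 3.02% of all 17353 windows. The 5 clock genes were PRR5, TOC1, LUX, BOA and FKF1, all among the 6 higher members, and ELF4 had no match in its window. The matches are shown because these genes moved together. The capitals mark the element, which reads AGATATTTT where it lies on the opposite strand of the gene, and each stretch runs 5′ to 3′ on the strand of its gene.
PRR5, chr5:8358715-8358743, minus strand, element starting 187 bases before the start: gattttttctAGATATTTTcttttctcca
TOC1, chr5:24674802-24674830, plus strand, 151 bases before: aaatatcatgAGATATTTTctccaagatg
LUX, chr3:17182979-17183007, plus strand, 53 bases before: tagaagatctAAAATATCTagctaactcg
BOA, chr5:24003835-24003863, plus strand, 43 bases before: tgcgggtaaaAGATATTTTagattatcta
FKF1, chr1:25508443-25508471, plus strand, 186 bases before: tgagtaggctAGATATTTTctcggaatat
FKF1, chr1:25508629-25508657, plus strand, at the start itself: aactaagccaAGATATTTTaaaagtttaa
A match is a run of letters and not a shown binding site. The abscisic acid element ACGTGGC, searched in the same way, occurred in 5.69% of higher, 6.88% of lower and 4.64% of all windows. It was found in 4 of the 13 tested clock genes and 3 of the 20 tested abscisic acid and cold genes. The evening element was found in 5 of these 20, and in 0 of 10 tested heat shock and 0 of 17 tested sugar starvation genes.

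Heat shock genes formed a group among the lower genes. They encode chaperones that protect and refold proteins and are switched on by heat shock factors. HSP70 (AT3G12580), a cytosolic HSP70, had 34.0, 42.02 and 63.9 CPM in chx25-3 and 152, 193 and 226 CPM in wild type. No library of one genotype lay in the range of the other, and the log2 fold change was −2.01 ± 0.17 (adjusted p = 1.98e-06, edgeR). HSP90.1 (AT5G52640), the heat-inducible HSP90, had 35.7, 49.7 and 65.7 CPM in chx25-3 and 121, 147 and 182 CPM in wild type (−1.45 ± 0.16, adjusted p = 2.85e-05, edgeR). ROF2 (AT5G48570), an FKBP-type prolyl isomerase that works with HSP90.1, had 3.67, 5.23 and 6.09 CPM in chx25-3 and 13.5, 15.8 and 28.9 CPM in wild type (−1.73 ± 0.19). HSP101, the disaggregase of heat tolerance, had −1.10, and MBF1C, a co-activator of the heat response, −1.03. These were the 5 of 10 tested members, among 13, that passed (50%, against 2.18% of all genes on the lower side), with none higher and a median of −0.77. Groups did not overlap at any of the 5.

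The small heat shock proteins did not follow. HSP18.2 (−0.27), HSP17.4 (−0.51), HSP17.6A (−0.21), HSP17.6C (0.15) and HSP17.6II (0.32) did not pass, and HSP21, HSP22 and HSFA2 were too low to test. Outside the list, AT5G51440, which encodes an HSP20-like mitochondrial protein (−1.53 ± 0.18), and the DNAJ-type co-chaperone gene AT2G20560 (−1.42 ± 0.16) were among the 12 largest decreases. Summed over the list the level was 114 to 211 CPM in chx25-3 and 392 to 522 CPM in wild type. The other 3 mutants had 231 to 516 CPM, above every chx25-3 library and overlapping with wild type, and 7 of the tested list members were lower in chx25-3 than in them. HSP70 had 63.1, 108 and 204 CPM in these mutants, and chx25-3 was lower by a log2 fold change of −1.19 (adjusted p = 4.14e-07, edgeR). In the window around its start HSP70 held a heat shock element (GAA, 2 bases, TTC, 2 bases, GAA), printed here in capitals, 20 bases after the start (chr3:3993846-3993874, minus strand), a run of letters found in 0.576% of all windows.
HSP70: ttactcgtGAACGTTCTCGAAagctcttt
HSP17.6C and HSP17.4, which did not pass, also held it, so that the match does not follow the calls within this list.

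Flavonoid synthesis genes were lower together. Flavonols are light- and sucrose-induced phenolics that in roots affect auxin transport and reactive oxygen. TT4 (AT5G13930), chalcone synthase and the entry enzyme of the pathway, had 68.6, 85.4 and 108 CPM in chx25-3 and 219, 319 and 359 CPM in wild type (−1.63 ± 0.14, adjusted p = 1.98e-06, edgeR). FLS1 (AT5G08640), flavonol synthase, had 10.5, 12.4 and 20.002 CPM in chx25-3 and 32.9, 45.9 and 55.0 CPM in wild type (−1.61 ± 0.16, adjusted p = 1.43e-05, edgeR). Both showed wide gaps between the genotypes. The steps between them were also lower, with chalcone isomerase TT5 at −0.99, its helper CHIL at −0.72 and flavanone 3-hydroxylase F3H at −0.75, as was the ligase 4CL3 (−0.85). Of 14 genes on the list, drawn up after the values had been seen, 9 were tested and 6 were lower and none higher (66.7%, against 2.18% of all genes on the lower side), with a median of −0.75. MYB12 (−0.26), the flavonol regulator of roots, and the glycosyltransferases UGT78D1 (−0.67, adjusted p = 0.075, edgeR) and UGT78D2 (−0.09) did not pass, and the anthocyanin enzymes DFR and LDOX were too low to test. Summed, the list held 158 to 221 CPM in chx25-3 and 358 to 573 CPM in wild type. TT4 was also lower in chx25-3 than in the other mutants (−0.74, adjusted p = 1.75e-05, edgeR), whose median of 151 CPM lay between both genotypes.

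Among mineral nutrition genes the iron list had the most calls. Of 24 tested members, among 27, 9 were lower and 1 higher (41.7%, against 6.83% of all genes), with a median of −0.41. The lower count was 4 without chx25-3 2x replicate 3, and 5 without wild type 2x replicate 1 or 2, wild type 4x replicate 3, chx25-3 2x replicate 1 or 2, or chx25-3 4x replicate 3. Summed over the list the genotypes overlapped, at 1435 to 2170 CPM in chx25-3 and 1881 to 2768 CPM in wild type. NAS1 (AT5G04950), a synthase of the metal chelator nicotianamine, had 194, 251 and 306 CPM in chx25-3 and 431, 534 and 743 CPM in wild type (−1.003 ± 0.14, adjusted p = 0.000244, edgeR). This was the one named iron gene whose groups did not overlap. The bHLH factors BHLH38 (−1.06) and BHLH39 (−1.01), which partner FIT, and BTSL1 (−0.97), a ubiquitin ligase that limits iron uptake, were lower, and F6H1 (0.58), an enzyme of coumarin synthesis, was higher. The uptake genes themselves did not pass: IRT1, the Fe transporter, had −0.19 (adjusted p = 0.674, edgeR), the reductase FRO2 −0.52 (adjusted p = 0.0647) and their regulator FIT −0.09. F6H1 was lost in 8 of 24 alternatives and BHLH38 in 2, without wild type 2x replicate 2 or chx25-3 2x replicate 2.

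Other nutrient lists held 1 or 2 calls each, 15.4% of the tested sulfur and of the tested phosphate genes and 7.69% of the nitrate genes, against 6.83% of all genes. SDI1 (AT5G48850), a sulfur deficiency gene that represses glucosinolate synthesis, had 14.6, 22.7 and 27.5 CPM in chx25-3 and 40.1, 51.7 and 69.1 CPM in wild type, with no overlap (−1.15 ± 0.16, adjusted p = 0.000417, edgeR). LSU2 (−0.67) was the other lower member among 13 tested sulfur genes of 14. Of 13 tested phosphate genes, among 19, the transporter PHT1;4 (−0.71) and the phosphatase PS2 (−0.82, lost in 12 of 23 alternatives) were lower. Of 13 tested nitrate genes, among 16, the repressor of nitrogen responses LBD37 (0.84) was higher, and the dual-affinity transporter NRT1.1 had 0.03. SWEET13 (AT5G50800), a sucrose exporter gene, was among the 12 largest decreases at −1.45 ± 0.24, with 0.607, 2.25 and 3.24 CPM in chx25-3 and 4.20, 6.32 and 7.89 CPM in wild type.

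In lists of root structure and water transport, 15.8% of aquaporins, 12.5% of suberin and 9.09% of Casparian strip genes were called, against 6.83% of all genes. Of 11 tested Casparian strip genes ESB1 (0.75), a dirigent protein of lignin deposition, was higher, and of 16 tested suberin genes the caffeoyl transferase FACT (0.61) was higher and the reductase FAR5 (−0.64) lower. All 16 root hair genes and all 7 mitosis genes were tested and none passed, with medians of −0.09 and 0.14. Of 19 aquaporins the tonoplast TIP1;2 (0.77, lost without wild type 2x replicate 2) was higher, and the plasma membrane PIP2;3 (−0.56, lost in 7 of 24 alternatives) and PIP1;4 (−0.55, lost without wild type 2x replicate 1 or chx25-3 2x replicate 1) were lower. In the triterpene clusters CYP71A16 (−0.60) was the one call among 9 tested genes of 10 (11.1%). Of the 12 largest increases among called genes without overlap between the genotypes, those given no role here were AT1G11210 (2.03), AT5G44585 (2.07), AT2G28570 (1.92), AT5G06570 (1.91), AT1G27020 (1.82) and MEE14 (1.804), and of the 12 largest decreases chosen in the same way AT3G53830 (−1.73), AT1G50590 (−1.56) and AT2G16660 (−1.42). Not every alternative could test these decreases: AT3G53830 was tested in 16 and AT1G50590 in 15 of 24 alternatives.

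Many more genes passed in 2x than in 4x roots, but a test of the difference found little. In 2x, 925 genes were higher (5.3%) and 741 lower (4.24%), 9.54% in all. In 4x, 111 were higher (0.636%) and 38 lower (0.218%), 0.854% in all. The genotype effect itself differed between 4x and 2x at 5 genes (0.0286%), more positive in 4x at 2 (0.0115%) and more negative at 3 (0.0172%), while 2120 genes (12.1%) had an unadjusted p under 0.05 for this difference (edgeR), and DESeq2 called 87. The 2x count depended on single libraries. It was 3279 without wild type 2x replicate 3, 276 without wild type 2x replicate 1, 503 without wild type 2x replicate 2, 479 without chx25-3 2x replicate 1 and 717 without chx25-3 2x replicate 2. Without wild type 2x replicate 3, 561 genes differed between ploidies, and without both outlying 2x libraries 274. The 4x count was 57 without chx25-3 4x replicate 3, 358 without chx25-3 4x replicate 1, and 68, 73 and 82 without wild type 4x replicates 1, 2 and 3. Heat shock genes passed in both ploidies (5 lower in 2x, 4 lower in 4x), as did clock genes (5 higher and 2 lower in 2x, 5 higher in 4x). Sugar starvation genes counted 12 higher in 2x and 5 in 4x, and abscisic acid and cold genes 7 higher in each. Rapid stress genes counted 5 higher in 2x and 1 in 4x. Iron genes counted 7 lower in 2x and 2 in 4x, and flavonoid genes 5 lower in 2x and 2 in 4x. HSP70 had −2.45 in 2x and −1.58 in 4x, and BT1 2.67 and 2.03.

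**Figure D3:**
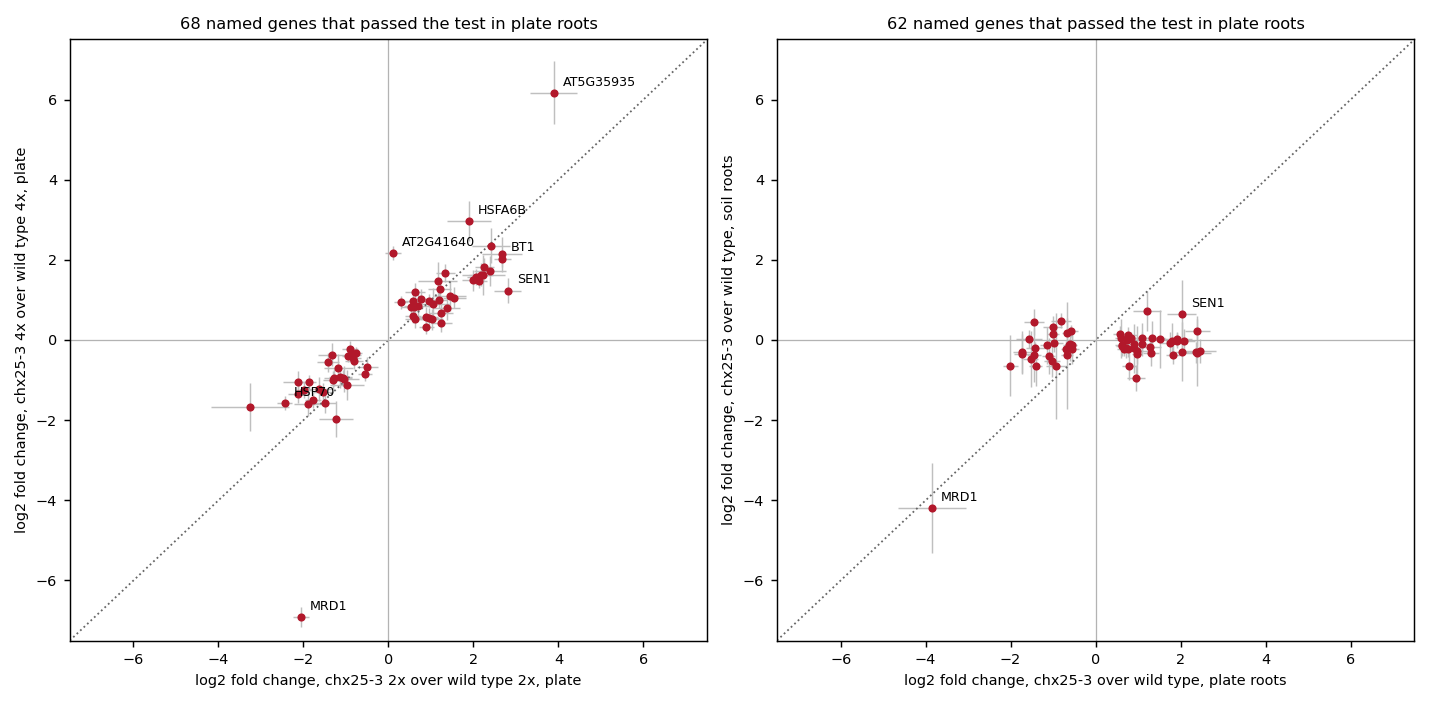
Left, log2 fold change of chx25-3 over wild type in 2x (horizontal) against 4x plate roots (vertical) for 68 named genes called in the pooled effect, with SE bars; right, the plate effect against the soil effect for the 62 of them tested in soil; the dotted line marks equal effects. The genes have the same sign in 2x and 4x, which their choice by the pooled effect favours, and in soil most lie near 0, with MRD1 the one beyond 1. The choice by the plate effect also favours larger effects on plates than in soil.

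Against the 16 libraries of the other 3 mutants, which does not use the wild type, 1104 genes were higher (6.01%) and 664 lower (3.61%) in chx25-3, 9.62% of 18374. BT1 had 1.05 (adjusted p = 0.000146, edgeR), SEN1 0.93, MEE14 0.92 and AT1G11210 1.02 against the other mutants. These differences are means over mutants that were themselves unlike. BT1 averaged 206 ± 54.7 CPM in chx25-3, against 45.4 ± 10.3 CPM in esb1-1, 132 ± 81.2 CPM in sos3-2 and 186 ± 89.8 CPM in rhd6-3/rsl1-1 (SD). SEN1 averaged 62.3 ± 39.5 CPM in chx25-3, against 16.8 ± 4.74 CPM in esb1-1, 37.6 ± 23.3 CPM in sos3-2 and 45.1 ± 13.4 CPM in rhd6-3/rsl1-1. At both genes esb1-1 was near the wild type means of 42.9 and 14.7 CPM, and chx25-3 was closest to rhd6-3/rsl1-1. HSP70 averaged 44.4 ± 11.2 CPM in chx25-3, against 170 ± 27.7 CPM in esb1-1, 84.7 ± 17.2 CPM in sos3-2 and 88.5 ± 19.3 CPM in rhd6-3/rsl1-1. Differences from each mutant alone were not tested. TCH3 (0.09, adjusted p = 0.738), HSFA6B (0.58, adjusted p = 0.423) and MRD1 (−0.46, adjusted p = 0.283) did not pass against the other mutants. Of the lists, sugar starvation had 11 higher, heat shock 7 lower, rapid stress 5 higher, clock 4 higher and iron 5 lower and 1 higher. Abscisic acid and cold had 4 higher and 1 lower of 20, and flavonoid synthesis 2 lower of 9. At LTI30 chx25-3 averaged 677 ± 140 CPM, against 842 ± 380 CPM in rhd6-3/rsl1-1, and at LTI78 66.9 ± 25.4 CPM, against 164 ± 108 CPM in rhd6-3/rsl1-1, so that the higher means there were not those of chx25-3. The root hair list had 14 higher against these mutants, among them rhd6-3/rsl1-1, which lacks root hair factors, and the ESB1 gene had 3.68, esb1-1 being among them.

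In soil roots of the same lines no gene passed between chx25-3 and wild type (0 of 17724 by edgeR, 406 or 2.29% with an unadjusted p under 0.05). DESeq2 called 2 genes there, AT1G75945 and AT5G35940, and edgeR without the filter called AT3G01345 and AT5G35935. A gene that reached 2 CPM only in the 5 chx25-3 soil libraries, as AT5G35935 did, could not pass the filter of 6 libraries. Of the 68 named genes called on plates 62 were tested in soil, and 31 had the same sign in both. Their median absolute log2 fold change was 1.06 on plates and 0.22 in soil, with median SEs of 0.18 and 0.32. The genes were chosen by their plate effect, which by itself favours a larger median on plates. BT1 had −0.31 in soil, SEN1 0.65, LTI30 −0.02, HSP70 −0.64, HSP90.1 −0.37, MYB51 −0.08 and PRR5 0.03. TT4 and FLS1 were too low in soil roots to be tested. The difference of the genotype effect between plates and soil passed for 150 genes (122 or 0.651% more positive and 28 or 0.149% more negative on plates, 0.801% of 18731 in all), among them BT1 (2.70), HSFA6B (2.79) and NAS1 (−1.20 on the same scale). This count was 595 without plate wild type 2x replicate 3 and 29 without soil chx25-3 4x replicate 2, and it moved by over 1.5 times on leaving out any of 13 of the 23 libraries. Age, medium, day length and pooling differ together between plates and soil.

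At a few loci chx25-3 and wild type differed by near presence or absence, in both ploidies or in one. At several of them the wild type, or its 2x plants, is the group that stands apart, as the values of the other mutants and of wild type 4x show. AT5G35935, annotated as a pseudogene, had 2.83, 3.58 and 6.14 CPM in chx25-3 and 0, 0.056 and 0.526 CPM in wild type plates, the largest increase (4.52 ± 0.46, adjusted p = 7.07e-06, edgeR). It passed the filter of 2 CPM in 6 libraries only through the chx25-3 plate libraries, and was tested in 16 of 24 alternatives. It had 8.53 to 14.4 CPM in chx25-3 and 0 to 1.799 CPM in wild type soil roots, so the difference also stood in soil. The other mutants had 1.06 to 7.51 CPM, a range that covers that of chx25-3 on plates. MRD1 (AT1G53480) was the largest decrease. It had 20.3, 22.4 and 21.9 CPM in chx25-3 2x and 0.423, 1.02 and 1.19 CPM in chx25-3 4x, against 87.2 to 128 CPM in wild type. Every chx25-3 library was below every wild type library, and the pooled log2 fold change was −3.86 ± 0.81 (adjusted p = 0.0201, edgeR, lost without chx25-3 4x replicate 3). In soil MRD1 again had 0 to 55.5 CPM in chx25-3 and 156 to 215 CPM in wild type. The other mutants ranged over 0 to 147 CPM with a median of 3.16 CPM, so that a low level is not particular to chx25-3.

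The genotype effect differed between ploidies at 5 genes, of which MRD1 is given above. AT2G41640 was at 49.0, 44.5 and 40.2 CPM in chx25-3 4x and at 9.16 to 13.7 CPM in chx25-3 2x, against 9.52 to 11.8 CPM in wild type 4x and 10.05 to 12.2 CPM in wild type 2x. In soil the 2 chx25-3 4x libraries had 82.1 and 69.1 CPM, and soil wild type 4x had 10.7 to 31.2 CPM. AT1G75945 was present in chx25-3 2x (14.2 to 21.9 CPM), chx25-3 4x (17.57 to 24.8 CPM) and wild type 4x (15.9 to 23.5 CPM), and had 0 counts in the 3 wild type 2x libraries. Its level in chx25-3 2x was at least 157-fold higher than in wild type 2x, set against 3 counts over the group. AT3G29647 had 1.13 to 2.32 CPM in chx25-3 4x and 14.7 to 16.5 CPM in wild type 4x, and overlapped between chx25-3 2x (2.13 to 5.70 CPM) and wild type 2x (2.84 to 4.88 CPM). SADHU3-2, a retroposon-derived transcript, had 5.49 to 6.10 CPM in chx25-3 4x and 0 to 0.415 CPM in wild type 4x, against 0 to 1.97 CPM in chx25-3 2x and 2.34 to 6.25 CPM in wild type 2x. AT3G01345 had 0 counts in all 6 chx25-3 libraries, at least 446-fold lower in chx25-3 2x than the 73.5 to 80.8 CPM of wild type 2x, and 0 to 0.311 CPM in wild type 4x. AT2G05230 had 0 counts in wild type 2x and 19.4 to 32.9 CPM in chx25-3 2x, but chx25-3 4x replicate 2 had 0 counts too while its 2 sister libraries had 31.7 and 26.5 CPM. In soil AT2G05230 had 40.2 CPM in chx25-3 2x replicate 3 and 0 counts in every other library of both genotypes.

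**Figure D4:**
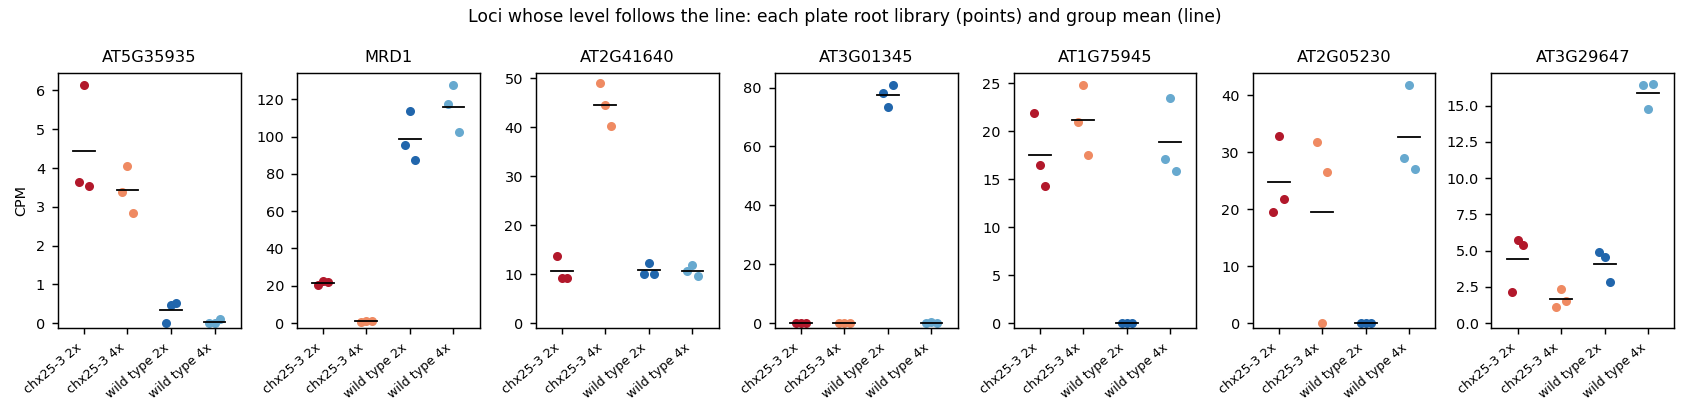
Levels in CPM of AT5G35935, MRD1, AT2G41640, AT3G01345, AT1G75945, AT2G05230 and AT3G29647 in each plate root library by genotype and ploidy; points are libraries and lines group means. MRD1 is lowest in chx25-3 4x and next lowest in chx25-3 2x, AT2G41640 is high in chx25-3 4x, and AT3G01345 is present in the 3 wild type 2x libraries at 73.5 to 80.8 CPM.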

How the data were processed

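The authors quantified single-end 3′ reads (QuantSeq) with Salmon, whose version is not given in the sources used here, and deposited 1 table per library with an expected count (NumReads) and a TPM for each of 81620 transcripts. The expected counts, estimated by the authors' run of Salmon, were summed here over the transcripts of each of 33681 loci and rounded to whole numbers. The deposited TPM values served only an alternative. Genes with at least 2 CPM in 6 libraries were kept and tested with edgeR 4.0.16 (R 4.3.3; TMM scaling, robust quasi-likelihood test, Benjamini-Hochberg over all genes tested, SE taken as the absolute log2 fold change over the square root of F). Called genes had an adjusted p under 0.05 and moved by 0.5 or more on the log2 scale. Ploidy was an additive term. The 2x, 4x and difference contrasts used 1 mean per group. limma 3.58.1 and DESeq2 1.42.0 were alternatives.

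Taken as named were CHX23, CHX25 and 2 loci on each side of each, the 12 largest increases and 12 largest decreases among called genes with no overlap between libraries, called list members (in lists of over 8 calls, the 4 largest in each direction), the on or off loci of the series and up to 3 called genes per direction of the other contrasts. Not every gene taken by this rule is described above, for example AT2G40710, which was lost in 2 of the 17 alternatives that tested it. Members of the 3 lists drawn up later, members that did not pass, and loci named for single patterns were chosen after their values were seen. The comparison and all lists were chosen with earlier results of these data known. A list was described by its count and median, with no test of its own.

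The 3 libraries of a group are separate pools of plate-grown plants as far as the labels tell, so that p-values measure the spread between these pools. Replicate numbers were not used to pair libraries across groups in the main fit, and whether they do pair them was not settled. Of the tested genes 17354 had a RefSeq entry (TAIR10.1), which gave symbols, chromosomes and the windows around 17353 starts. The build behind the deposited counts is not given in the sources used here, and the files hold no coordinates. On simulated counts for 17445 genes the test recovered 84.8% of 99 genes changed by 1 on the log2 scale and 98 of 98 changed by 2, with 7 false calls. The simulation drew genes independently, without library effects shared across genes, so its false calls do not cover outlying libraries such as those seen here. Of 88 samples 2 whose labels disagree on their group were left unassigned and entered no comparison.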

Additional observations from a re-analysis of the deposited data

Results flagged for a closer look

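A test of the difference itself singled out genes whose genotype effect (log2 fold change, chx25-3 over wild type) was unlike in 4x and 2x plate roots, or on plates and in soil. Between ploidies, 4x minus 2x, the effect differed by −4.86 at MRD1, 2.07 at AT2G41640, −3.48 at AT3G29647, 6.68 at SADHU3-2 and −9.92 at AT1G75945. The fitted values of SADHU3-2 and AT1G75945 rest on groups at or near 0 counts, depend on the prior count and are no bounds. In SADHU3-2 the directions are opposite, with chx25-3 above wild type in 4x and below it in 2x.

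Between plate and soil roots, plate minus soil, the effect was more positive on plates by 2.79 at HSFA6B, 2.70 at BT1, 2.64 at JMJD5, 2.22 at AT1G27020, 2.13 at AT5G44585, 1.91 at AT5G06570, 1.90 at BOA, 1.88 at AT2G28570 and 1.88 at MYB51. It was more negative on plates by −3.11 at AT4G23900, −2.49 at BHLH38, −1.98 at SWEET13, −1.64 at AT1G50590, −1.32 at PS2, −1.23 at AT2G16660 and −1.20 at NAS1. JMJD5, a clock-linked jumonji protein, had 1.74 to 3.80 CPM in chx25-3 and 0.202 to 0.784 CPM in wild type plate roots and was too low for the plate test. Which of age, medium, day length and pooling goes with these differences cannot be told apart.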

How the results depend on the processing

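The genotype effect in plate roots gave 980 to 1463 calls under the other tools, scalings and filters (DESeq2 1463, of which 1181 were shared with the 1193, and limma-voom on scaled TPM 980 of 15320 genes, of which 928 were shared), 961 without a ploidy term and 1203 with all 28 plate libraries, and no shared call changed direction. Under limma-voom 65.8% of the 2x calls were higher, against 55.5% in the edgeR fit. Of 68 named called genes 50 passed in every alternative that tested them, 18 were lost in at least 1 and 0 reversed. Among the 50, FKF1, AT5G35935 and AT3G53830 were tested in 16 of 24 alternatives and AT1G50590 in 15. Outside the replicate block and the fits without 1 library, counts that moved by over 1.5 times were, for 4x, 370 with DESeq2. For the difference between ploidies they were 87 with DESeq2, 2 at equal depth and 274 without the 2 outlying 2x libraries, both settings chosen after seeing the data. Soil roots had 2 calls with DESeq2 and 2 without a filter, plate minus soil had 454 with DESeq2, and 2x had 1018 with scaled TPM. The cause of these shifts was not tested. Same-numbered libraries correlated at −0.284 to 0.622 in their deviations, and differently numbered ones at −0.602 to 0.383. The highest values, 0.622 and 0.558, were between same-numbered libraries of replicates 2 and 3. Whether the numbers pair libraries was not settled, and the main fit did not pair them. With the replicate block the counts were 1352 for the genotype effect, 2402 in 2x, 320 in 4x, 10 for their difference, 1569 against the other mutants, 0 in soil and 437 for plate minus soil. Of these, the counts in 4x, for the difference between ploidies and for plate minus soil also moved by over 1.5 times. Leaving out 1 library at a time gave 795 to 1561 calls for the genotype effect, 276 to 3279 in 2x, 57 to 358 in 4x, 4 to 561 for their difference, 1262 to 2465 against the other mutants, 0 to 0 in soil and 29 to 595 for plate minus soil. Genes near the filter of 2 CPM rest on few reads in the shallowest chx25-3 library.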
